A study of Mus musculus with 4 samples.

Results

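Slc1a1, Slc1a2, Slc1a3, Slc6a9, Slc6a11 and Slc6a17, genes for carriers of glutamate, glycine, GABA and neutral amino acids, were read out over coronal brain sections of mouse pups. They were chosen by symbol, and all 6 were found among the 19465 features counted. The sections came from male wild-type C57BL/6J pups at postnatal day 21 (P21). Their mothers, 8 weeks old per the labels, ate a diet with folic acid (FA) at 2 mg/kg (the MF group, 2 sections) or 20 mg/kg (the HF group, 2 sections), from 2 weeks ahead of mating until lactation ended. Genotype, strain, sex and age were shared by both groups, so the diet of the mother is the only labelled difference. Visium-FFPE reads RNA in preserved tissue through probe pairs, which are counted as unique molecular identifiers (UMIs) in barcoded spots, each a small region that can hold several cells of different types. Levels are given in CPM, the UMIs of a gene scaled to an equal UMI total in every area and section. Each gene is read by its own probes, so levels were compared within a gene only, and fewer cells of a type and less RNA per cell cannot be told apart.

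Neurons release glutamate, GABA and glycine, and sodium-coupled carriers of the SLC1 and SLC6 families clear them from the extracellular space. Most glutamate is taken up by astrocytes, through GLT1 (Slc1a2) and GLAST (Slc1a3), while EAAC1 (Slc1a1) is mainly neuronal and also carries cysteine. GlyT1 (Slc6a9) is a largely glial glycine carrier that sets the glycine around NMDA receptors, and Slc6a11 encodes a GABA carrier of astrocytes. Slc6a17 (NTT4) belongs to the SLC6 family but is known as a carrier of neutral amino acids on synaptic vesicles, so it does not fall under a heading of plasma membrane transmitter carriers.

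On GRCm38 the genes lie on 6 chromosomes, all annotated as protein-coding. Slc1a1 is at chr19:28835049-28913960, Slc1a2 at chr2:102658659-102790784 and Slc1a3 at chr15:8634124-8710764 on the minus strand. Slc6a9 is at chr4:117834506-117875198, Slc6a11 at chr6:114131241-114249952 and Slc6a17 at chr3:107467543-107518018 on the minus strand.

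After filtering, the sections held 3197 to 3598 spots, and these had between 34982061 and 90096877 UMIs, with MF replicate 1 the deepest. The members with the fewest UMIs were Slc1a1, with 4157 to 10154 in a section, and Slc6a9, with 4248 to 11444. Spots were grouped by other genes into areas, which were named by marker genes or, where markers did not name them, by their leading genes. Levels are given for 21 such areas. The area at the brain surface, led by Ptgds, Ddn and Col1a1, had 411 spots in HF replicate 1 and 216 to 243 in the others, and the Six3 and Pvalb area had 110 spots in HF replicate 2 and 38 to 53 in the others. Choroid plexus held 10 to 15 spots and the Col1a2 and Col1a1 area of the hippocampus 19 to 38, so these areas enter as levels without a test of diet.

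**Figure D1:**
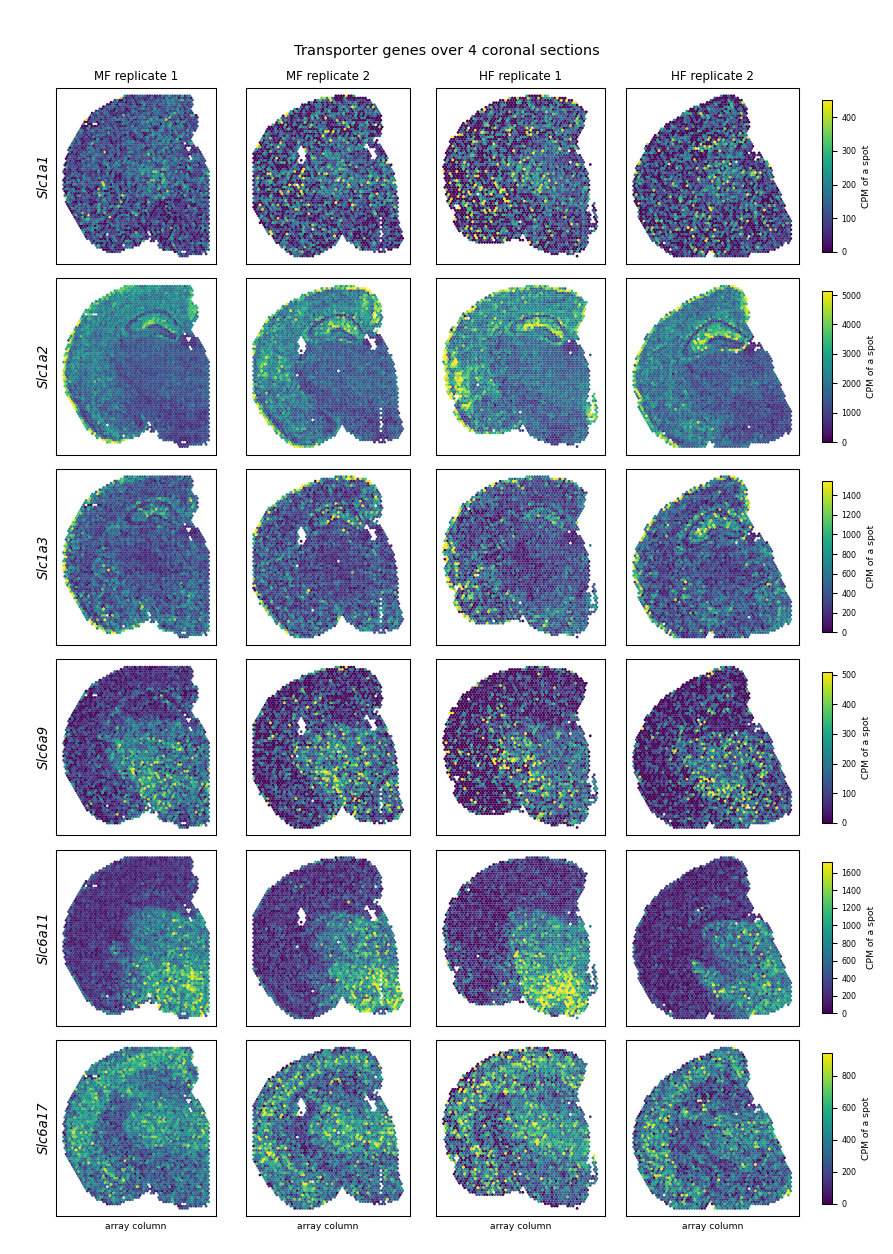
Spots of the 4 sections (columns) at their array position, coloured by the CPM of 1 gene (rows), each row with its own colour scale. Slc6a11 and Slc6a9 were high at the lower right of each section, where thalamus and hypothalamus lie, and Slc1a2 along the outer surface and in the hippocampus.

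Spatial pattern was first read from Moran's I, which scores whether neighbouring spots have similar values and uses no areas. The 6 genes stood in the same order in each of the 4 sections. Slc6a11 was highest with 0.517 to 0.650, at ranks 29 to 61 among the 16731 to 18235 features of a section. Slc1a2 followed with 0.350 to 0.533 and ranks of 97 to 182. Slc6a9 had 0.218 to 0.344, Slc6a17 0.161 to 0.256 and Slc1a3 0.104 to 0.168. Slc1a1 was lowest with 0.0385 to 0.0842, at ranks 2936 to 4071. Every gene had its highest score in MF replicate 1, the deepest section, so scores were not compared between sections. Genes differed in depth too, with 66397 to 149711 UMIs in a section for Slc1a2 and 4248 to 11444 for Slc6a9. Their order by this score was therefore not read as strength of pattern alone, and the part of depth was not tested.

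All 6 genes differed between cortex, hippocampus, thalamus, hypothalamus, striatum and white matter. Each passed the quasi-likelihood test of edgeR for the region terms with section as a block, with an adjusted p of 1.89e-07 for Slc1a3 and lower values for the others. Of all genes, 85.7% passed as well, and regions were themselves defined by expression. The fitted range over the 6 regions was widest for Slc6a11, at 2.10 on the log2 scale, followed by Slc6a9 with 1.73, Slc6a17 with 1.09, Slc1a2 with 0.96, Slc1a1 with 0.82 and Slc1a3 with 0.36.

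**Figure D2:**
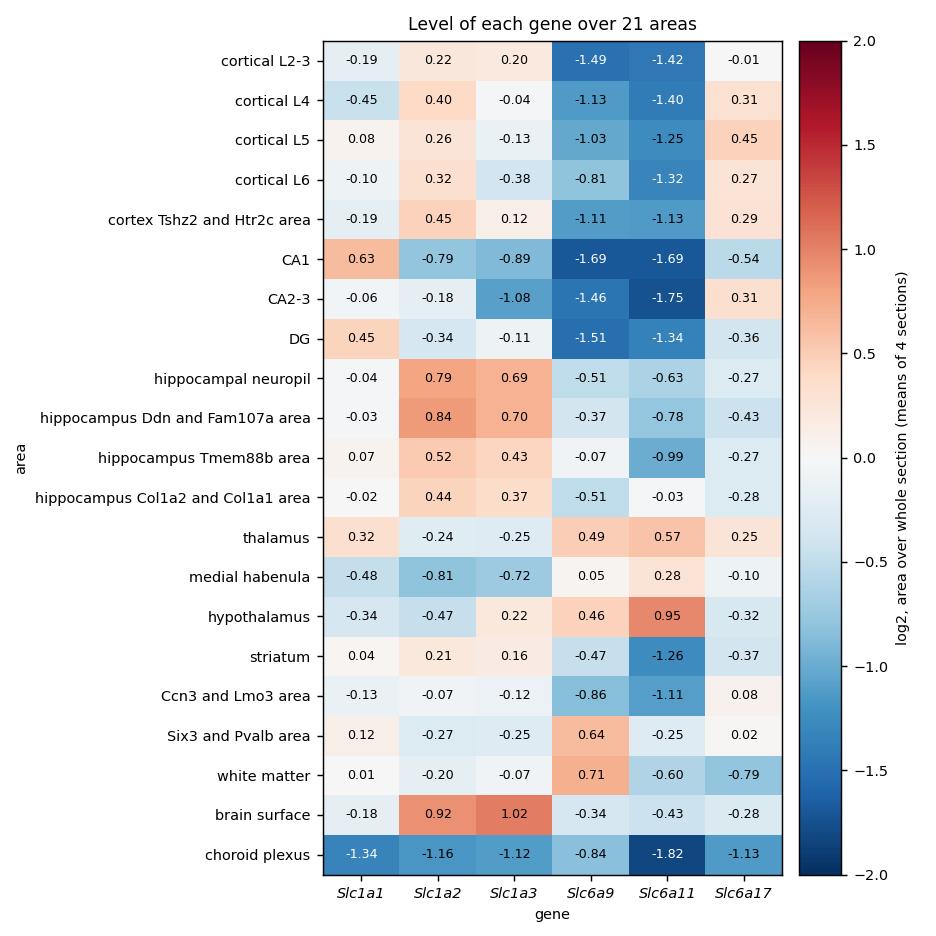
Mean log2 ratio of the CPM in each of 21 areas (rows) to that of the whole section for the 6 genes (columns), over 4 sections. Slc6a11 ran from -1.82 in choroid plexus to 0.95 in hypothalamus, and Slc1a2 and Slc1a3 were both high at the brain surface, in the Ddn and Fam107a area and in the hippocampal neuropil.

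Of the astrocytic glutamate carriers, Slc1a2 was at its highest at the brain surface and in areas of the hippocampus outside the cell layers. At the surface it measured 2955 and 3481.5 CPM under MF and 3316 and 3210.2 CPM under HF, with replicate 1 first here and in all that follows. The mean was 3241 ± 221 CPM (SD, n = 4). The Ddn and Fam107a area of the hippocampus had 3074 ± 156 CPM and the neuropil, led by Ndnf and Lcat, 2981 ± 369, and neighbours in this order overlapped. The cell layer of CA1 had only 995 ± 145 CPM, and its highest section, 1118 CPM, was below the lowest of the neuropil, 2703 CPM. Cortical layers were intermediate and overlapped each other, from 1999 ± 202 CPM in layer 2-3 to 2257 ± 183 in layer 4. Levels were lower deep in the brain, with 1456 ± 170 CPM in thalamus, 1251 ± 213 in hypothalamus and 987 ± 145 in medial habenula. Of the 20 pairs of neighbours in the order of areas, 19 overlapped, and striatum with the Ccn3 and Lmo3 area was the exception.

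Slc1a3 was also highest at the brain surface, with 811 and 783 CPM under MF and 678 and 845 CPM under HF, a mean of 779 ± 72.0. The Ddn and Fam107a area followed with 624 ± 85.4 CPM and the neuropil with 619 ± 31.1, and all 20 pairs of neighbours overlapped. Its lowest levels were in CA2-3, at 182 ± 29.4 CPM, and choroid plexus, at 183 ± 61.2, which overlapped, and choroid plexus was the lower of them after thinning and with TMM scaling. Over the 21 areas Slc1a2 and Slc1a3 had a Pearson r of 0.83, a description in which all points share the same 4 libraries. With the summed level of astrocyte markers, r was 0.44 for Slc1a2 and 0.73 for Slc1a3. With that of neuron markers, it was 0.43 for Slc1a2 and 0.10 for Slc1a3.

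The balance of both carriers nevertheless differed between areas. Relative to the whole section, the log2 ratio of Slc1a2 to Slc1a3 was 0.90 ± 0.15 in CA2-3, 0.70 ± 0.06 in cortical layer 6 and -0.68 ± 0.11 in hypothalamus. The sections lay between 0.76 and 1.03 in CA2-3 and between -0.82 and -0.57 in hypothalamus, without overlap. In hypothalamus Slc1a3 had 444 ± 27.1 CPM and was above its whole-section level in each section, whereas Slc1a2 was below its own in each.

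Slc1a1, the neuronal glutamate carrier, had its highest mean in the CA1 cell layer, where Slc1a2 and Slc1a3 were low. It measured 182 and 165 CPM under MF and 182 and 175 CPM under HF, a mean of 176 ± 8.12. The dentate gyrus (DG) followed with 155 ± 8.34 CPM and thalamus with 142 ± 7.90. Sections of CA1 and DG overlapped, as did those of DG and thalamus, while thalamus and the next area, that of Six3 and Pvalb at 123 ± 7.25 CPM, did not. CA2-3 had 109 ± 10.2 CPM, and its highest section, 118 CPM, was below the lowest of CA1, 165 CPM. Within the cortex, layer 5 had 119.8 ± 8.85 CPM and layer 4 had 82.9 ± 3.75, without overlap. Hypothalamus was low at 89.6 ± 3.55 CPM, and choroid plexus was lowest at 46.6 ± 15.3.

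The glycine carrier gene Slc6a9 was highest in white matter, with 210 and 206 CPM under MF and 189 and 199 CPM under HF, a mean of 201 ± 9.25. The Six3 and Pvalb area had 191 ± 18.1 CPM, thalamus 172 ± 13.6 and hypothalamus a mean of 169. Neighbours in this order from white matter to hypothalamus overlapped. Hypothalamus did not overlap with the next area, medial habenula at 129 ± 23.0 CPM. Forebrain cell layers were lowest, with 43.9 ± 5.40 CPM in cortical layer 2-3, 43.4 ± 7.34 in DG and 38.5 ± 6.35 in CA1. Over the 21 areas Slc6a9 had a Pearson r of 0.88 with the summed level of 10 oligodendrocyte markers and 0.73 with that of 19 astrocyte markers.

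Slc6a11, the astrocytic GABA carrier gene, had the steepest pattern, 6.75-fold between the mean levels of the highest and the lowest area. In hypothalamus it measured 889 and 904 CPM under MF and 1072 and 700.0 CPM under HF, a mean of 891 ± 152. Both extremes were in HF. Thalamus followed with 679 ± 50.8 CPM, below hypothalamus within each section, although the ranges of these areas overlapped. Medial habenula had 555 ± 58.4 CPM and did not overlap with thalamus. Striatum had 192 ± 31.9 CPM, cortical layers between 172 ± 30.2 and 192 ± 22.1, CA1 142 ± 19.4 and CA2-3 137 ± 21.6. The gene had a Pearson r of 0.70 over areas with the astrocyte markers, and 0.79 with Slc6a9. In white matter, Slc6a9 was high relative to Slc6a11, with a log2 ratio of 1.32 ± 0.40 relative to the whole section, and in hypothalamus it was low, with -0.49 ± 0.07, and these areas did not overlap.

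Slc6a17, the vesicular gene, was highest in cortical layer 5, with 541 and 514 CPM under MF and 539 and 456 CPM under HF, a mean of 513 ± 39.5. CA2-3 had 464 ± 16.6 CPM and layer 4 had 463 ± 31.5, and all 20 pairs of neighbours in the order overlapped. CA1, where Slc1a1 had its highest mean, had 259.8 ± 42.1 CPM, and its highest section, 300.3 CPM, was below the lowest of CA2-3, 453 CPM. White matter had 216 ± 13.7 CPM and choroid plexus 175 ± 41.8. Over areas the Pearson r with 11 measured neuron markers was 0.90, and that of Slc1a1 with the same markers 0.51.

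**Figure D3:**
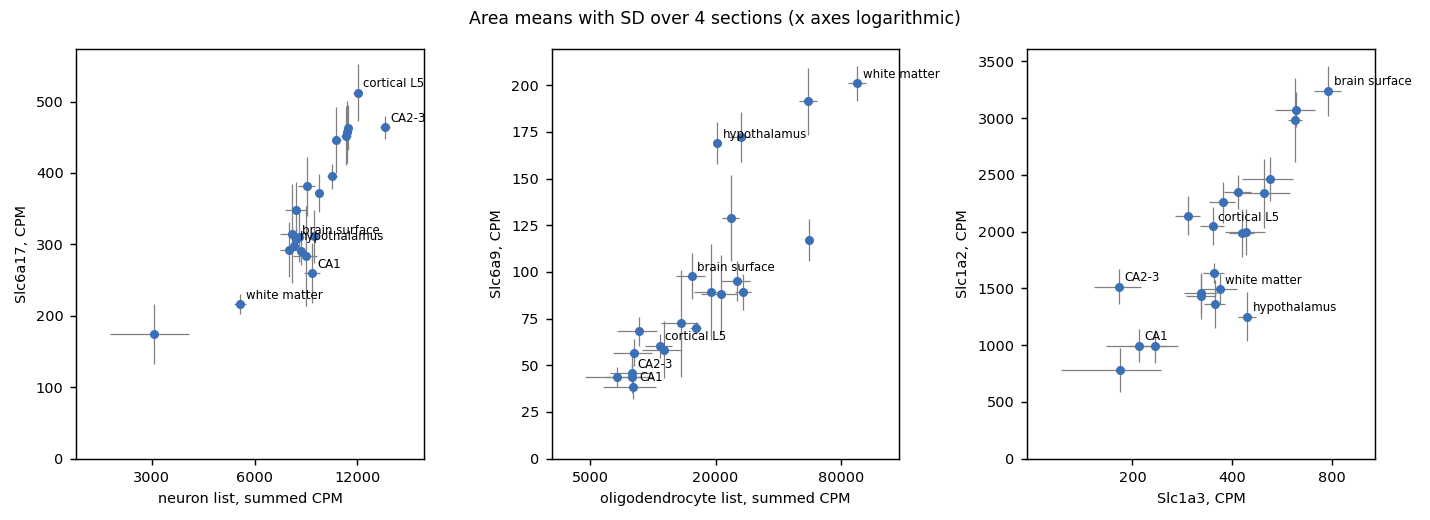
Each point is 1 of 21 areas (mean of 4 sections, bars for SD, horizontal axes logarithmic): Slc6a17 against the summed CPM of the neuron markers, Slc6a9 against that of the oligodendrocyte markers, and Slc1a2 against Slc1a3. White matter had the most Slc6a9 at 201 CPM, and in the last panel hypothalamus had 1251 CPM of Slc1a2 and 444 of Slc1a3, against 1514 and 182 CPM in CA2-3.

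Genes with the most similar pattern were sought by Pearson r of the mean log2(CPM + 1) over the 21 areas, among 10195 genes. They were Dio2 (0.90), Htra1 (0.90) and Fam107a (0.87) for Slc1a2, and Ppp1r3c (0.96), Htra1 (0.92) and Prex2 (0.91) for Slc1a3. Htra1 was thus among the closest 3 for both. For Slc6a11 they were Itih3 (0.95), Agt (0.93) and Pcbd1 (0.93), and for Slc6a9 Cyp2j6 (0.95), Ndrg1 (0.94) and Pmvk (0.93). For Slc6a17 they included Cltc (0.94) and Syngr1 (0.93), which encode clathrin heavy chain and a synaptic vesicle protein. Slc1a1 was matched least closely, by Anks1b (0.88), Elfn2 (0.84) and Arpc1a (0.84). Dio2, Htra1, Fam107a and Itih3 are leading genes of areas used here, and Ppp1r3c, Agt and Ndrg1 are in the marker lists. Over single spots thinned to 5000 UMIs, r within a section was far lower, 0.128 to 0.225 for Slc1a2 with Slc1a3 and 0.190 to 0.243 for Slc6a9 with Slc6a11. With the neuron markers it was 0.230 to 0.266 for Slc6a17 and 0.0018 to 0.0359 for Slc1a1. With the oligodendrocyte markers it was 0.233 to 0.303 for Slc6a9. With the astrocyte markers it was 0.316 to 0.453 for Slc6a11, 0.172 to 0.198 for Slc6a9, 0.0795 to 0.180 for Slc1a2 and 0.2551 to 0.3295 for Slc1a3.

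The second question was whether the 6 genes differed between pups of HF and MF mothers. Over the whole section none was called by the quasi-likelihood test of edgeR, which required an adjusted p under 0.05 over all genes and at least 1.2-fold, and of all 14971 genes 0% were called. None of the 6 had an unadjusted p under 0.05, against 1020 of all genes, and DESeq2 called none of the 6 either. Their median log2 change was -0.01, against 0.00 for all genes.

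**Figure D4:**
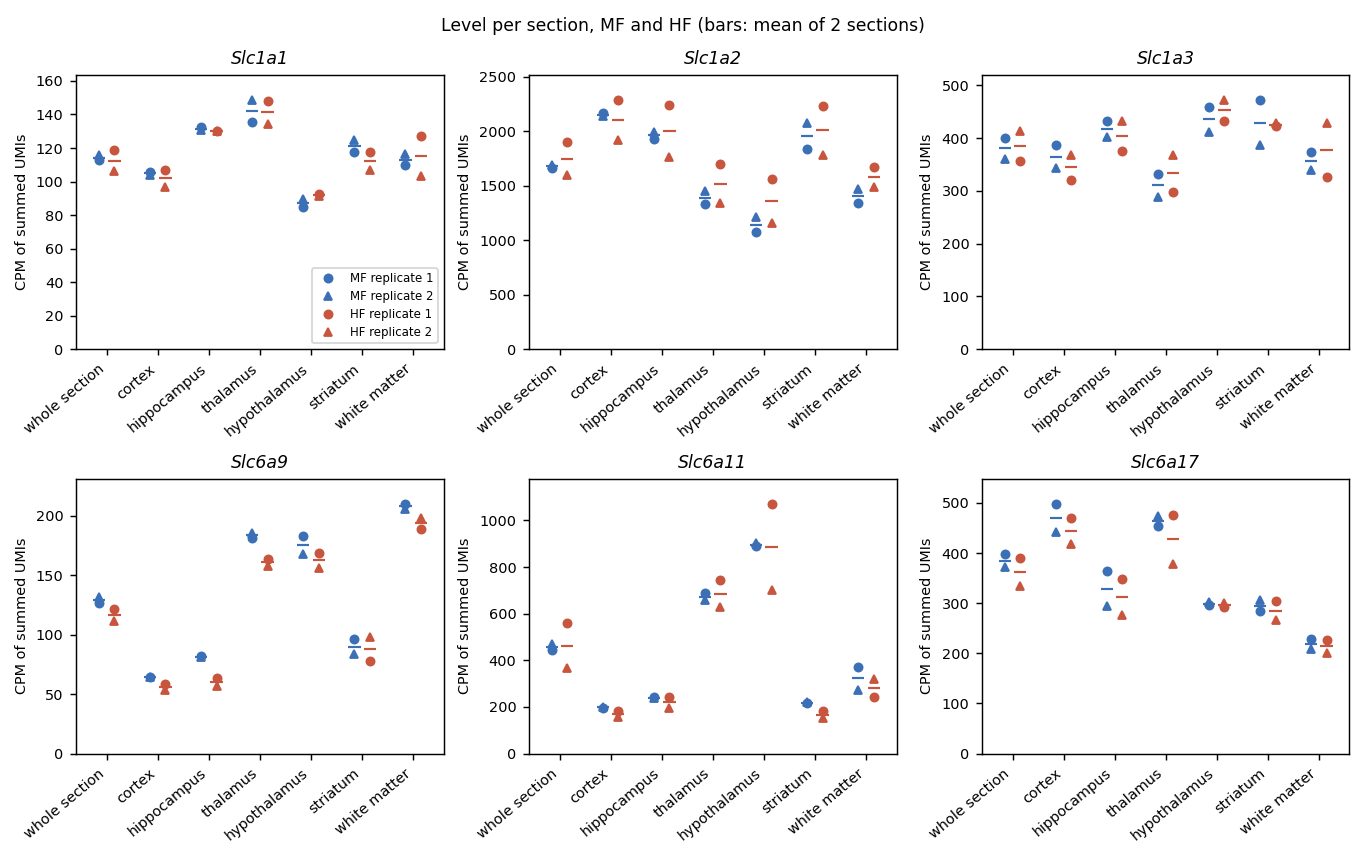
CPM of each gene (panels) in the 4 sections, MF in blue and HF in red, for the whole section and 6 regions, with bars at the mean of 2 sections and vertical axes from 0. Slc6a9 in hippocampus was at 82.0 and 81.2 CPM under MF and at 63.8 and 57.1 CPM under HF.

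Slc6a9 was the member whose whole-section levels separated by diet. It measured 127 and 131 CPM under MF and 121 and 112 CPM under HF. Both HF sections were below both MF sections, as for 17.9% of all genes, and the log2 change from MF to HF was -0.16 ± 0.07 (SE), with an adjusted p of 0.726 by edgeR. The 10 oligodendrocyte markers, none of them at 0, summed to 26014 and 27158 CPM under MF and 21569 and 23155 CPM under HF, with all 10 lower in HF, and their part in the level of Slc6a9 was not tested.

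Slc6a11 measured 444 and 469 CPM under MF and 558 and 369 CPM under HF, so the highest and the lowest section were both HF. The log2 change was 0.01 ± 0.18, with an adjusted p of 0.992 by edgeR. It was -0.30 with an adjusted p of 0.0109 without HF replicate 1, and 0.27 with an adjusted p of 0.0260 without HF replicate 2, where 7.68% and 5.55% of all genes were called. Slc1a2 measured 1662 and 1694 CPM under MF and 1898 and 1601.5 CPM under HF, on both sides of MF, and its log2 change was 0.05 ± 0.09 with an adjusted p of 0.915. Slc6a17 measured 398 and 373 CPM under MF and 391 and 335 CPM under HF, which overlap, with a change of -0.10 ± 0.09. Slc1a1 changed by -0.03 ± 0.08 and Slc1a3 by 0.01 ± 0.11, also with overlapping sections.

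By area, 21 areas with at least 20 spots in each section were tested, among them cortex and hippocampus as wholes and their layers and parts, so the areas are not independent. No member was called in any of them. Of all genes, 0.152% were called in cortex, 0% in hippocampus, 0% in thalamus, 0% in hypothalamus, 0.0875% in striatum and 0.0407% in white matter, and 0.159% of the gene and area pairs of the other 15 areas. At an unadjusted p under 0.05 there were 11 of 126 member and area pairs, 5 for Slc6a9 and 6 for Slc6a11, against 6.42% of all pairs. DESeq2 called none of the 126 pairs and had 3 at an unadjusted p under 0.05, Slc6a9 in hippocampus and Slc6a11 in cortex and striatum.

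In hippocampus, Slc6a9 measured 82.0 and 81.2 CPM under MF and 63.8 and 57.1 CPM under HF. The HF sections were below the MF sections, as for 20.7% of all genes there. The log2 change was -0.43 ± 0.10, with a p of 0.0016 before and 0.231 after adjustment by edgeR. The adjusted p by edgeR was 0.0323 without the filter on low counts, at a change of -0.43, where 1.08% of all genes were called. Without HF replicate 1 the change was -0.49. The oligodendrocyte markers summed to 25333 and 21961 CPM there under MF and 17751 and 15240 CPM under HF, with all 10 lower in HF. Of the 19 astrocyte markers 16 were lower, with sums of 3182 and 3181 CPM under MF and 3096 and 2739 CPM under HF. The part of either in the result was not tested. Within the hippocampus, Slc6a9 changed by -0.58 ± 0.26 in CA2-3, -0.44 ± 0.22 in the neuropil, -0.42 ± 0.21 in DG and -0.01 ± 0.24 in the Ddn and Fam107a area.

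Fitted changes of Slc6a9 were below 0 in all 21 areas, from -0.68 ± 0.23 in the Tshz2 and Htr2c area of the cortex, where the adjusted p was 0.656 by edgeR, to -0.000569 ± 0.15 in striatum, with a median of -0.22. In the Tshz2 and Htr2c area it measured 75.0 and 67.1 CPM under MF and 47.3 and 43.7 CPM under HF, without overlap, and the oligodendrocyte markers summed to 13528 and 13151 CPM under MF and 8832 and 9624 CPM under HF. Both HF sections were below both MF sections in 16 of the 21 areas, against 17.8% of all gene and area pairs, and in no area were both above. The ratio of HF to MF in the summed oligodendrocyte markers was below 1 in each of these areas, from 0.606 in cortical layer 2-3 to 0.968 in hypothalamus. In striatum, where that ratio was 0.909, Slc6a9 measured 96.2 and 84.0 CPM under MF and 78.1 and 98.3 CPM under HF, which overlap. In white matter, where it was 0.967, the log2 change of Slc6a9 was -0.11 ± 0.13 and its sections did not overlap. The part of these markers, or of any other cell type, in the changes of Slc6a9 was not tested.

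Slc6a11 had fitted changes below 0 in 18 of the 21 areas, with a median of -0.19, and in 6 of them both HF sections were below both MF sections, against 17.8% of all gene and area pairs. In striatum it measured 216 and 221 CPM under MF and 181 and 153 CPM under HF, without overlap. The log2 change was -0.41 ± 0.13, with a p of 0.00363 before and 0.485 after adjustment by edgeR. Without HF replicate 1 the change was -0.51. The astrocyte markers in striatum summed to 3026.5 and 2975 CPM under MF and 2726 and 2752 CPM under HF, with 16 of 19 lower and none at 0, and their part was not tested. In cortex Slc6a11 measured 197 and 198 CPM under MF and 182 and 156 CPM under HF, a change of -0.22 ± 0.09 with an adjusted p of 0.544 by edgeR, and 17 of 19 astrocyte markers were lower. In hypothalamus, where the gene is highest, its change was -0.03 ± 0.18 with overlapping sections, and -0.35 without HF replicate 1.

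**Figure D5:**
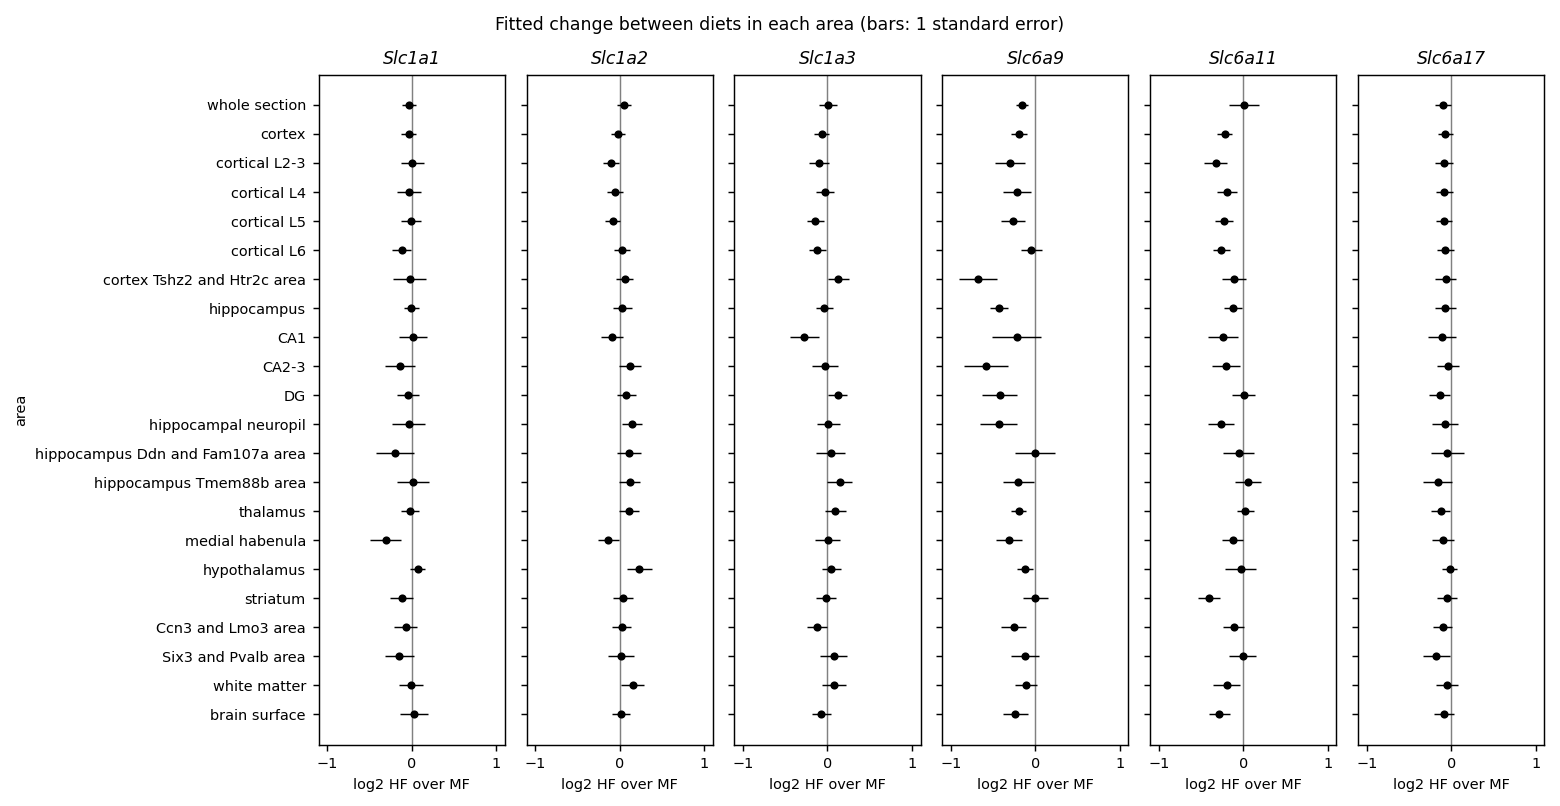
Fitted log2 change from MF to HF of each gene (panels) in the whole section and 21 areas, with bars of 1 standard error. Slc6a9 lay at or below 0 in each area, down to -0.68, Slc6a17 lay between -0.18 and -0.02, and Slc1a2 lay on both sides of 0.

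The glutamate carriers had no common direction. Slc1a2 was higher in HF in 15 of 21 areas by its fitted value, from -0.13 ± 0.12 in medial habenula to 0.23 ± 0.15 in hypothalamus, and both HF sections were above both MF sections in 2 areas, against 17.5% of all gene and area pairs. In hypothalamus it measured 1074 and 1214 CPM under MF and 1559 and 1157 CPM under HF, which overlap, with an adjusted p of 0.817 by edgeR. Without HF replicate 2 the change there was 0.41. Slc1a3 had 11 values below 0 and 10 above, the lowest -0.27 in CA1. Slc1a1 had 16 below and 5 above, from -0.31 in medial habenula, where HF replicate 2 was lowest at 52.5 CPM and the others had 86.4 to 102 CPM, to 0.07 in hypothalamus. Slc6a17 was below 0 in all 21 areas, but between -0.18 and -0.02, and both HF sections were below both MF sections in 2 of them, against 17.8% of all gene and area pairs.

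Whether a change between diets differed among the 6 regions was tested in 1 edgeR fit with section as a block. None of the 6 genes was called and none had an unadjusted p under 0.05, while 0.0426% of all genes were called, and DESeq2 was not run for these terms. The fitted changes of Slc6a9 spanned 0.45 on the log2 scale between regions, with an adjusted p of 0.706, those of Slc6a11 0.40, with 0.899, and those of Slc1a2 0.24, with 0.704.

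Of 55 further genes of transmitter transport and metabolism, 52 were among the features and 47 were tested over the whole section. No call was made for them there, and 22 were lower and 25 higher in HF by the fitted value, with a median of 0.00. Over the whole section and 21 areas none of 876 gene and comparison pairs was called by edgeR. Of these, 62 (7.08%) had an unadjusted p under 0.05, against 6.42% of all gene and area pairs.

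Of 6 vesicular carriers none had an unadjusted p under 0.05 over the whole section, and the log2 changes of the 3 with the highest CPM were -0.07 ± 0.07 for Slc17a7, 0.10 ± 0.17 for Slc17a6 and 0.06 ± 0.08 for Slc32a1, which load glutamate and, for the last, GABA and glycine. Among enzymes of glutamate metabolism, Got1 had 0.02 ± 0.08 and Glud1 -0.11 ± 0.07. Atp1b1, a subunit of the sodium pump that maintains the gradient driving uptake, had 0.08 ± 0.07. In hippocampus 45 were tested, 23 of them lower, and 5 had an unadjusted p under 0.05, against 6.42% of all gene and area pairs. There were 5 such genes in cortex, 5 in thalamus, 6 in white matter, 4 in striatum and 1 in hypothalamus. The 5 in hippocampus are named after their values were seen. Psat1, an enzyme of serine synthesis, had -0.31 ± 0.09, Slc17a6 -0.32 ± 0.11, the taurine carrier Slc6a6 -0.23 ± 0.10, the glial potassium channel Kcnj10 -0.22 ± 0.09 and Slc6a15 0.26 ± 0.10, and the lowest adjusted p of these was 0.342 by edgeR.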

How the data were processed

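UMI counts per spot were deposited as whole numbers, unnormalised, after the authors had aligned probe reads to mm10 in Space Ranger. A table per section, also deposited, holds the score of Moran's I for each feature. Spots needed at least 500 UMIs and 250 genes, and 18 of 13470 were dropped. Barcodes mark array positions, and 2474 positions lay over tissue in all 4 sections. Areas came from Leiden clustering (leidenalg 0.10.2, resolution 1, 30 components, 20 neighbours) of 2000 variable genes, with the members, related genes, neuropeptides, hormones, blood genes and mitochondrial genes kept out. UMIs were summed per section and area and fitted in edgeR 4.0.16 (R 4.3.3) with TMM, filterByExpr and Benjamini-Hochberg adjustment over all genes tested. Alternatives were DESeq2 1.42.0, other scaling, filter, clustering and thinning to 5000 UMIs, single spots, a replicate block, and each section left out. Scripts were tested on simulated data. Sources used here do not give litters, so p-values measure the spread between these sections. Members and lists were chosen with earlier results of these data known. Named are the members, the 3 genes most like each over areas (at least 10 CPM), and per list of related genes the 3 of highest CPM and any called, and some genes that meet this rule are not reported here.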

Additional observations from a re-analysis of the deposited data

How the results depend on the processing

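No member was called between diets, in the whole section or in any area, under DESeq2, library size alone, thinning, both other clusterings or a replicate block, and none for the region by diet terms under any alternative run. Called member and area pairs, 0 as reported, were 1 without the filter on low counts (Slc6a9 in hippocampus), 11 with the rank sum test over single spots and 4 with it after thinning, all lower in HF, where spots stand in for replicates. Of all gene and area pairs these settings called 0.3%, 7.94% and 0.87%. Leaving out 1 section gave 0 to 8 pairs and 0 to 1 members over the whole section, while 2.02% of all pairs were called without HF replicate 1, 1.13% without HF replicate 2 and at most 0.155% without an MF section. The 8 came without HF replicate 1: all were lower in HF, Slc6a11 in hypothalamus, striatum and layers 2-3 and 4, Slc6a9 in hippocampus, Slc6a17 in thalamus (-0.30), and Slc1a1 (-0.89) and Slc1a2 (-0.42) in medial habenula. The 2 without HF replicate 2 were Slc1a2 higher in thalamus (0.27) and hypothalamus (0.41).

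Whole-section log2 changes near 0 turned sign. Slc1a1 was 0.0014 over single spots, and Slc1a3 was -0.052 thinned and -0.040 over thinned single spots. Slc6a11 was -0.049 thinned, -0.095 over single spots and -0.066 over thinned single spots. With replicate numbers as a block it was -0.017, and -0.018 with crossed numbers, which were added after seeing the data since the replicate differences of the diets correlated at -0.16 over genes. A single correlation over genes cannot show whether the replicate numbers pair the sections, and the block changed no call of a member. Over fits without 1 section, changes ran from -0.10 to 0.034 for Slc1a1, -0.064 to 0.15 for Slc1a2, -0.12 to 0.12 for Slc1a3, -0.30 to 0.27 for Slc6a11, -0.20 to -0.11 for Slc6a9 and -0.20 to -0.0034 for Slc6a17. The causes were not tested.

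Peak levels, as log2 ratios to the whole section, moved from 0.63 to 0.51 (thinned) and 0.76 (TMM-scaled) for Slc1a1 in CA1, from 1.03 to 0.87 (thinned) for Slc1a3 at the surface, from 0.71 to 0.82 (TMM-scaled) and 0.55 (resolution 0.5) for Slc6a9 in white matter, and from 0.95 to 0.90 (TMM-scaled) for Slc6a11 in hypothalamus. For Slc6a17 in layer 5 they moved from 0.45 to 0.48 (thinned), 0.55 (TMM-scaled), 0.44 (resolution 0.5) and 0.44 (genes scaled over all spots). Slc6a9 was highest in the Six3 and Pvalb area after thinning, and Slc1a2 and Slc1a3 in the neuropil with genes scaled over all spots, where the brain surface formed no area. Over all genes, DESeq2 called 23 in the whole section and 32 in hippocampus, where edgeR called 0. With 2 sections per diet, small changes are not detectable, and larger ones can be missed. In simulated counts, edgeR called 41.5% of genes changed 1.5-fold in the whole section, 54% in thalamus and 29% in DG. For genes changed 2-fold it called 90.5%, 86% and 72%. A gene that was not called may therefore have changed by as much.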

Other observations

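Other carriers of the same transmitters had their own places in these sections. Slc17a7, the vesicular glutamate carrier gene of cortex and hippocampus, was highest in CA2-3, Slc17a6 in thalamus, and Slc32a1, which loads GABA and glycine into vesicles, in the Six3 and Pvalb area. The glycine carrier gene of glycinergic neurons, Slc6a5, had at most 0.143 CPM in a section, and Slc1a6, a glutamate carrier gene of Purkinje cells, a mean of 14.6 CPM.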
